A study of Mus musculus with 6 samples.

Results

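The 10 genes described here encode plasma membrane amino acid transporters and were chosen as a named list of genes: Slc3a2, Slc7a5, Slc7a8, Slc7a6, Slc7a7, Slc7a11, Slc7a1, Slc7a2, Slc1a5 and Slc38a2. All 10 were found by symbol among the 46983 genes of the count table, and all 10 passed the filter on low counts that left 16115 genes for testing. Their transcripts were measured by RNA sequencing in mouse bone marrow derived macrophages, which are grown from femoral marrow in medium that drives marrow cells to become macrophages. The 3 wild-type (WT) libraries came from C57BL/6 mice, and the 3 AEG-1 KO libraries from C57BL/6 mice that lack AEG-1 (astrocyte elevated gene-1, the product of Mtdh). All cells were kept for 7 days with 20% conditioned medium of L929 cells, a source of macrophage growth factor, and 10% heat-inactivated serum, and none received a further treatment. The labels give no age of the mice and do not say whether the knockout acts in every cell or which part of the gene is missing. They also do not say whether replicates are separate animals, so the p-values reflect only how much these 6 libraries vary, and that variation may be technical.

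Free amino acids cross the cell surface through membrane carriers. Slc3a2 encodes the heavy chain 4F2hc (CD98), a glycoprotein that does not itself carry amino acids but binds light chains of the Slc7 family and brings them to the membrane. Light chains exchange an amino acid inside for one outside, so their net supply depends on other carriers that load the cell, such as the sodium-driven glutamine carriers. In macrophages, cationic carriers supply arginine to arginase and nitric oxide synthase, and the cystine carrier supplies glutathione synthesis. Several of these genes are known targets of ATF4, the transcription factor that is made when amino acids run short.

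The libraries held 42548170 to 58947230 counts, and levels are given as CPM, the reads of a gene scaled to library size, where 1 CPM stood for at least 42.55 reads. Reads of Mtdh numbered 11560, 14849 and 11806 in the WT libraries and 15, 22 and 15 in the AEG-1 KO libraries, so each library carried the Mtdh level of its label. All 12 macrophage markers were measured, with a summed level of 19000 to 19500 CPM in WT and 19800 to 20300 CPM in AEG-1 KO. Of these, 4 were higher, Csf1r, Mertk and Mrc1 among them, 7 did not pass the test, and 1, Adgre1, was lower. Adgre1 was at 4597, 4576 and 4643 CPM in WT replicates 1 to 3 and 4170, 4031 and 3920 CPM in AEG-1 KO replicates 1 to 3 (adjusted p in edgeR = 0.0238). Other cell types' markers summed to far less, and the sums of several lists differed between the groups. In the edgeR comparison described below, 3.31% of all tested genes were called higher and 3.04% lower. Monocyte markers summed to 188 to 210 CPM in WT and 236 to 250 CPM in AEG-1 KO (6 of 10 higher), neutrophil markers to 197 to 224 and 249 to 294 CPM (6 of 12 higher, 1 lower, 2 not tested), and stromal markers to 8.22 to 16 and 15.7 to 20.2 CPM (5 of 12 higher, 3 not tested). Without WT replicate 2 or without AEG-1 KO replicate 2, the markers called were 2 of neutrophils and 3 of stroma, and without AEG-1 KO replicate 3 those of stroma were also 3. Erythroid and megakaryocyte markers summed to 63.8 to 73.4 and 97.5 to 104 CPM, and B cell markers to 81.7 to 87.2 and 69.1 to 75.2 CPM. T and NK cell markers summed to at most 14.3 CPM in any library. Cd4 alone held 10.9 to 13.3 CPM of that sum, and Gzma was at 0. Dendritic cell markers summed to at most 16.4 CPM in any library. The part of these cells in the transporter results was not tested. In bulk RNA, fewer cells of a type and less RNA per cell cannot be told apart.

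Of the 10 transporters, Slc7a5, Slc7a1, Slc7a7 and Slc38a2 fell in AEG-1 KO, none rose, and 6 did not pass the test. Over all 16115 genes, 3.04% were called lower and 3.31% higher, 6.35% in all (quasi-likelihood test of edgeR, with a p under 0.05 after Benjamini-Hochberg adjustment over all genes tested). The falls ran from 0.21 to 0.76 on the log2 scale. The median log2 fold change of the 10 was -0.05, against 0.01 over all tested genes. The WT and AEG-1 KO libraries did not overlap in 6 of the 10, the 4 called genes plus Slc7a6 and Slc7a8, which lay higher in AEG-1 KO; over all tested genes, 26.8% did not overlap.

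**Figure D1:**
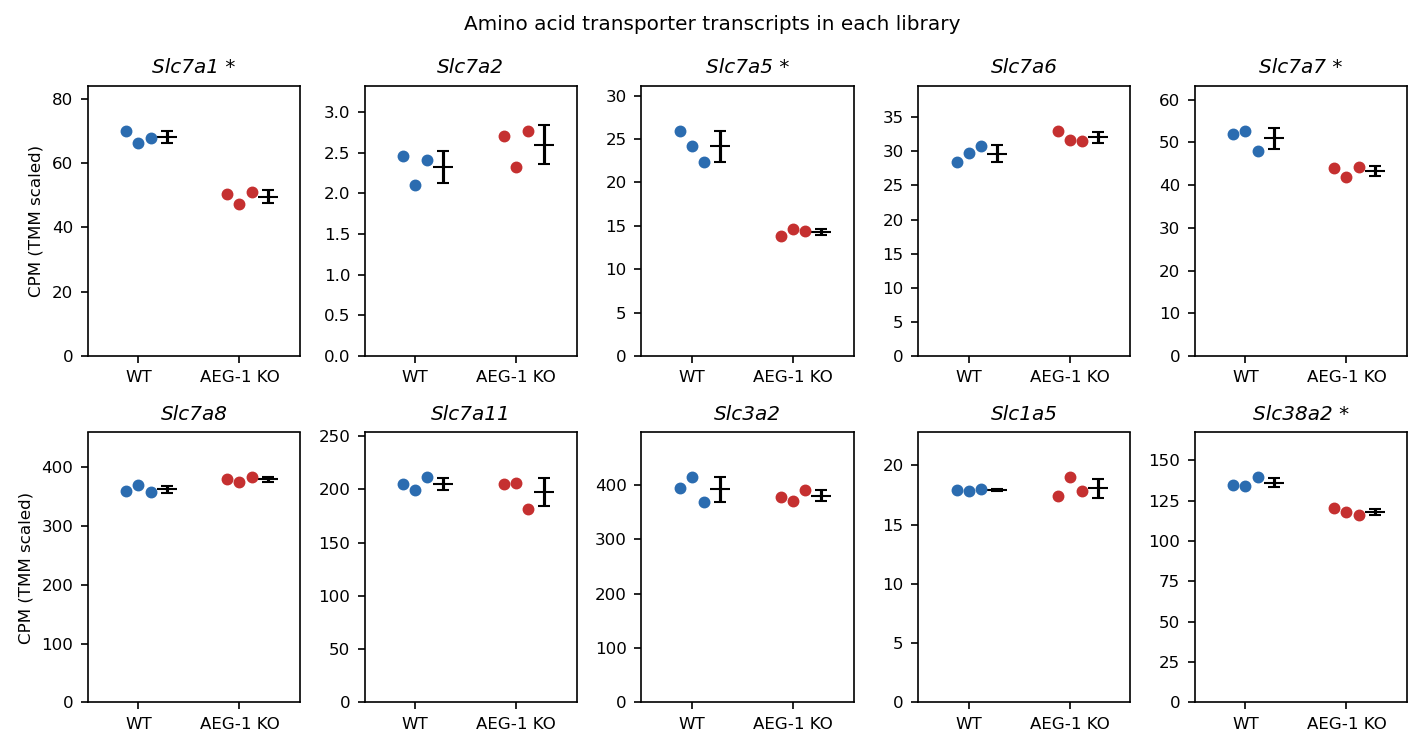
TMM-scaled CPM (vertical axis, from 0) of each of the 10 transporter transcripts in the 3 WT (blue) and 3 AEG-1 KO (red) libraries, with the group mean and SD in black and an asterisk for an adjusted p in edgeR under 0.05. Slc7a5 lies at 22.4 to 25.9 CPM in WT and 13.9 to 14.6 CPM in AEG-1 KO, while Slc3a2 and Slc1a5 overlap between the groups.

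The transporters spanned a wide range of levels. Per kilobase of exon (RPKM), the WT order was Slc3a2 at 111 ± 6.53 (SD, n = 3), Slc7a8 at 72.3 ± 1.25, then Slc38a2, Slc7a7 and Slc7a11 at 15.4, 15.4 and 14.7, whose WT values overlapped between neighbours. Slc7a5 and Slc7a6 followed at 6.52 and 6.49 RPKM, also overlapping, then Slc7a1 at 5.90, Slc1a5 at 4.297 ± 0.0227 and Slc7a2 at 0.254 ± 0.0212 RPKM. In AEG-1 KO, Slc7a5 at 3.85 ± 0.102 RPKM lay below Slc1a5 at 4.33 and Slc7a1 at 4.29, which overlapped each other, and only Slc7a2 lay lower, at 0.285 RPKM. With the length of the longest transcript in place of all exons, Slc7a1 in WT moved above Slc7a6 and Slc7a5, at 9.47 against 7.91 and 6.87 RPKM. Slc7a5 in AEG-1 KO kept its place between Slc1a5 and Slc7a2 under that length, at 4.06 RPKM.

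The heavy chain and its large neutral amino acid carriers differed in how they compared between genotypes: Slc7a5 fell, and Slc3a2 and Slc7a8 did not pass the test. Slc3a2 (ENSMUSG00000010095, GRCm38 chromosome 19, 8706882 to 8723369) was at 394, 414 and 368 CPM in WT replicates 1 to 3 and 378, 371 and 391 CPM in AEG-1 KO replicates 1 to 3. These values overlapped, and the log2 fold change was -0.04 ± 0.05 (SE; 95% interval -0.16 to 0.07; adjusted p in edgeR = 0.668). Its transcripts share a repeat-like stretch of at most 182 bases with 335 other genes, so some of its reads may be placed uncertainly.

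Slc7a5 encodes LAT1, the exchanger that takes up leucine and other large neutral amino acids. It lies on chromosome 8, 121881150 to 121907694 (ENSMUSG00000040010), and overlaps no exon of another gene. Its level was 25.9, 24.2 and 22.4 CPM in WT replicates 1 to 3 and 13.9, 14.6 and 14.4 CPM in AEG-1 KO replicates 1 to 3. Every AEG-1 KO library lay below every WT library, and the AEG-1 KO libraries were closer together than the WT libraries. The level fell to 59.1% of WT (log2 fold change -0.76 ± 0.07 SE, adjusted p in edgeR = 0.000394), which was 52nd in order of p among all tested genes.

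Slc7a8 encodes LAT2, a second exchanger of neutral amino acids that takes smaller ones as well. It lies on chromosome 14, 54722209 to 54781946 (ENSMUSG00000022180). Its level was 360, 369 and 357 CPM in WT against 380, 374 and 382 CPM in AEG-1 KO replicates 1 to 3. The AEG-1 KO libraries all lay above the WT libraries, by a small margin that did not pass the test (log2 fold change 0.06 ± 0.04 SE, 95% interval -0.02 to 0.15, adjusted p in edgeR = 0.356). The interval of Slc7a8 lay wholly above that of Slc7a5, which was -0.91 to -0.60.

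Set against each other per length, Slc7a8 was the more abundant of these exchangers in every library. Its RPKM was 10.3, 11.3 and 11.8 times that of Slc7a5 in WT replicates 1 to 3 and 20.3, 19 and 19.7 times in AEG-1 KO replicates 1 to 3. Slc7a5 per length was 5.87% ± 0.36 (SD, n = 3) of Slc3a2 in WT and 3.58% ± 0.14 in AEG-1 KO, without overlap.

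The y+L exchangers release cationic amino acids in return for neutral ones and sodium. Slc7a7 encodes y+LAT1, the form known for lysinuric protein intolerance and for its expression in macrophages (ENSMUSG00000000958, chromosome 14, 54369442 to 54417780). It was at 52, 52.7 and 48.1 CPM in WT replicates 1 to 3 and 43.9, 41.9 and 44.1 CPM in AEG-1 KO replicates 1 to 3. The groups did not overlap, and the level fell to 85% of WT (log2 fold change -0.23 ± 0.05 SE, adjusted p in edgeR = 0.0332). The call was kept without WT replicate 3 and lost without any other library, at adjusted p in edgeR of 0.0549 without WT replicate 1, 0.15 without WT replicate 2, and 0.0842, 0.136 and 0.0639 without AEG-1 KO replicates 1, 2 and 3. Slc7a7 shares 232 bases of exon with Oxa1l on the other strand, a gene with a log2 fold change of 0.08 (adjusted p in edgeR = 0.499), and strand use in counting is not given in the sources used here.

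Slc7a6 encodes y+LAT2, the more widely expressed form (ENSMUSG00000031904, chromosome 8, 106168857 to 106198706). It was at 28.4, 29.7 and 30.9 CPM in WT against 33, 31.7 and 31.5 CPM in AEG-1 KO replicates 1 to 3. All AEG-1 KO libraries were above all WT libraries, and the difference did not pass the test (log2 fold change 0.11 ± 0.05 SE, 95% interval -0.01 to 0.23, adjusted p in edgeR = 0.262). Per length, Slc7a7 was 2.37 ± 0.2 times Slc7a6 in WT and 1.86 ± 0.061 times in AEG-1 KO (SD, n = 3).

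Slc7a11 encodes xCT, which brings in cystine in exchange for glutamate (ENSMUSG00000027737, chromosome 3, 49892526 to 50443614). It was at 205, 199 and 211 CPM in WT replicates 1 to 3 and 205, 206 and 182 CPM in AEG-1 KO replicates 1 to 3. AEG-1 KO replicate 3 was the lowest library and the other AEG-1 KO libraries lay within the WT range. The log2 fold change was -0.05 ± 0.05 (SE; 95% interval -0.18 to 0.07; adjusted p in edgeR = 0.631), and -0.01 without AEG-1 KO replicate 3. Annotated transcripts of Slc7a11 hold stretches nearly identical to 11 other genes, of up to 373 bases with each of the alpha-tubulin genes Tuba1a, Tuba1b and Tuba1c, so this value is uncertain. Those tubulin genes had log2 fold changes of -0.36, -0.30 and -0.24 (adjusted p in edgeR = 0.0444, 0.00343 and 0.0315).

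Summed over the 5 light chains Slc7a5, Slc7a6, Slc7a7, Slc7a8 and Slc7a11, the per-length level was 115, 117 and 114 RPKM in WT replicates 1 to 3 and 115, 113 and 114 RPKM in AEG-1 KO replicates 1 to 3. The sum per Slc3a2 was 1.03, 0.998 and 1.09 in WT and 1.07, 1.07 and 1.02 in AEG-1 KO, so the groups overlapped. The makeup of the sum differed more. Slc7a5 made up 5.64% ± 0.385 of it in WT and 3.39% ± 0.118 in AEG-1 KO, and Slc7a7 13.3% ± 0.52 and 11.5% ± 0.252 (SD, n = 3). Slc7a8 made up 62.7% ± 0.451 in WT and 66.5% ± 0.693 in AEG-1 KO, and Slc7a6 5.62% ± 0.28 and 6.16% ± 0.107. Slc7a11 held 12.7% ± 0.551 and 12.5% ± 0.85, which overlapped. A share of a sum rises when other parts fall, and neither Slc7a8 nor Slc7a6 passed the test. The shares use the length of all exons and were not computed with that of the longest transcript. These are shares of transcripts, not of protein at the membrane.

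**Figure D2:**
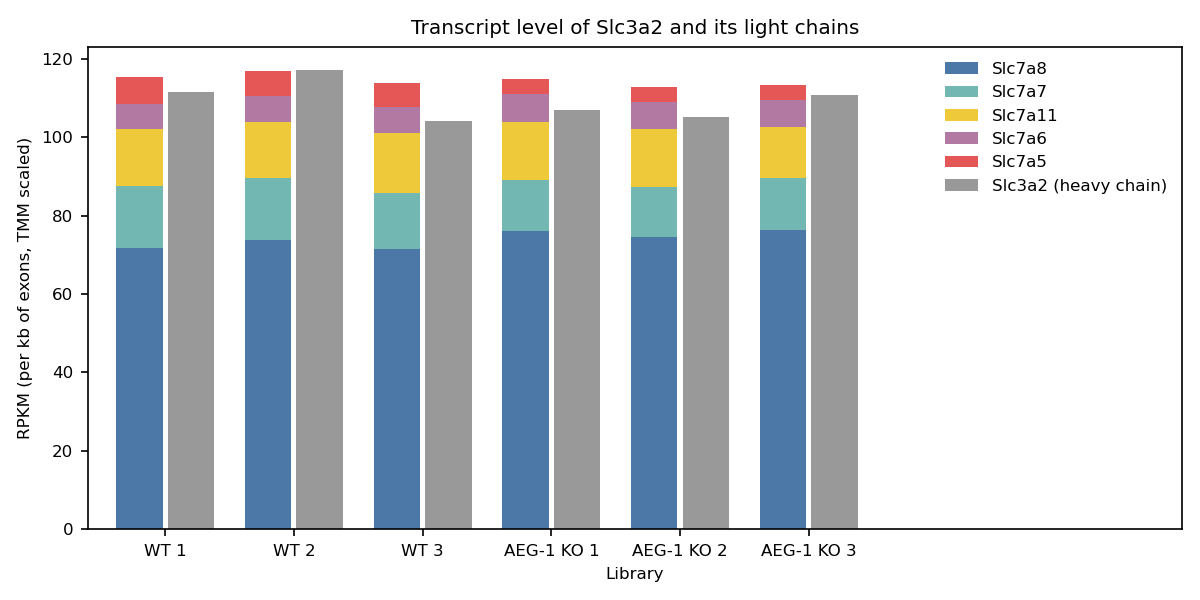
RPKM (vertical axis, from 0) of the 5 light chains, stacked, beside that of their heavy chain Slc3a2 in each of the 6 libraries. The stacks reach 113 to 117 RPKM in all libraries, and the red Slc7a5 segment is 6.04 to 7 RPKM in WT and 3.74 to 3.94 RPKM in AEG-1 KO.

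Cationic amino acids enter mainly through the CAT carriers, which work without a heavy chain. Slc7a1 encodes CAT1, the widespread arginine and lysine carrier (ENSMUSG00000041313, chromosome 5, 148327410 to 148399904). It was at 70, 66.3 and 67.7 CPM in WT replicates 1 to 3 and 50.4, 47.2 and 50.9 CPM in AEG-1 KO replicates 1 to 3. The lowest WT library was well above the highest AEG-1 KO library. The level fell to 72.8% of WT (log2 fold change -0.46 ± 0.05 SE, adjusted p in edgeR = 0.000992).

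Slc7a2 encodes CAT2, the form that activated macrophages are known to induce for arginine uptake (ENSMUSG00000031596, chromosome 8, 40862396 to 40922308). In these untreated cells it had only 99 to 124 reads per library. It was at 2.46, 2.1 and 2.41 CPM in WT against 2.71, 2.33 and 2.77 CPM in AEG-1 KO replicates 1 to 3, which overlapped. The log2 fold change was 0.17 ± 0.13 (SE; 95% interval -0.11 to 0.46; adjusted p in edgeR = 0.48), so a change of the size seen in Slc7a1, in the same direction, lay outside the interval. The gene shares 635 bases of exon with a noncoding gene on the other strand and holds near-identical stretches of 58 other genes, so its value is uncertain. Per length, Slc7a1 was 23.3 ± 1.5 times Slc7a2 in WT and 15.1 ± 0.82 times in AEG-1 KO (SD, n = 3).

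Among the carriers of glutamine and small neutral amino acids, Slc38a2 fell and Slc1a5 did not pass the test. Slc38a2 encodes SNAT2, which pumps glutamine and alanine in with sodium and is known to be induced by amino acid shortage (ENSMUSG00000022462, chromosome 15, 96687392 to 96699730). It was at 134.9, 134.1 and 139.3 CPM in WT replicates 1 to 3 and 120.1, 117.8 and 116.2 CPM in AEG-1 KO replicates 1 to 3. The groups did not overlap. The level fell to 86.7% of WT (log2 fold change -0.21 ± 0.04 SE, adjusted p in edgeR = 0.0178). It lies on the same chromosome as Mtdh, which starts at 34082694. The call was kept without WT replicates 1 or 3 and lost without WT replicate 2 or AEG-1 KO replicates 1, 2 or 3, at adjusted p in edgeR of 0.0656, 0.0523, 0.101 and 0.0688.

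Slc1a5 encodes ASCT2, an exchanger of glutamine with alanine, serine and cysteine (ENSMUSG00000001918, chromosome 7, 16781340 to 16798274). It was at 18, 17.8 and 18 CPM in WT against 17.4, 19 and 17.8 CPM in AEG-1 KO replicates 1 to 3. The AEG-1 KO values lay on both sides of the narrow WT range. The log2 fold change was 0.01 ± 0.06 (SE; 95% interval -0.12 to 0.14; adjusted p in edgeR = 0.949), and its sign changed between analysis settings. Per length, Slc38a2 was 3.58 ± 0.059 times Slc1a5 in WT and 3.09 ± 0.17 times in AEG-1 KO (SD, n = 3).

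Since several of these genes are known ATF4 targets, the promoter windows of RefSeq (GRCm38.p6, 250 bases before to 50 after each annotated start) were searched on both strands for the C/EBP-ATF response element TGATGNAA, the core TGACNNNGC of the antioxidant response element of NRF2, and the E-box CACGTG. Windows were found for 7 of the 10 genes; Slc7a2, Slc7a5 and Slc1a5 had no entry. TGATGNAA was present in the windows of Slc7a11 and Slc7a7, 2 of 7 genes, against 4.51% of all genes with a window and 3.97% of all 32851 windows. TGACNNNGC was present in Slc7a1, Slc7a6 and Slc38a2, against 14% of all genes and 12.4% of windows. The E-box was found in 0 of the 7 genes, against 8.09% of all genes and 7.15% of windows. A match is a description of letters and not of binding, and the matches printed do not overlap one another.

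The stretches that hold the matches are shown for Slc7a11, which has a facing pair of TGATGNAA matches and did not pass the test, and for 3 of the genes that fell. Capitals mark the matches, each stretch is written 5′ to 3′ on the gene's own strand (minus in all 4), and all end at the last base before a RefSeq start except that of Slc7a7, which runs 10 bases past it. The stretch of Slc7a11 lies at chr3:50443614-50443713, that of Slc7a7 at chr14:54417935-54418104, that of Slc38a2 at chr15:96699729-96699788 and that of Slc7a1 at chr5:148399905-148399964.
Slc7a11: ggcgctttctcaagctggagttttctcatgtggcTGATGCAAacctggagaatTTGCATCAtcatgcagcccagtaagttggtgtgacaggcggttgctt
Slc7a7: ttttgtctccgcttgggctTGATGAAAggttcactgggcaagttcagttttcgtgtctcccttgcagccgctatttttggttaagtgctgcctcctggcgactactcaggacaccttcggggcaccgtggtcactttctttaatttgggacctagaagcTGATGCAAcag
Slc38a2: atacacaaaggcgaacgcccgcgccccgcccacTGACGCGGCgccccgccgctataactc
Slc7a1: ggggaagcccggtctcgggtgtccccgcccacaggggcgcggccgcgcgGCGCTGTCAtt

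In Slc7a11 the matches begin 66 and 47 bases before the start and point in opposite directions. In Slc7a7 they begin 141 bases and 1 base before the first of its annotated starts. In Slc38a2 the antioxidant core begins 27 bases before the start. In Slc7a1 the core reads on the strand opposite to the gene, and its marked letters begin 11 bases before the start. Among the 26 genes with a window in the list of the amino acid response described below, 8 (30.8%) held TGATGNAA. The share of all genes with a window was 4.51%. Of these 8, Asns, Trib3, Chac1, Nupr1 and Vldlr fell, Atf3 and Pycr1 did not pass the test, and Fgf21 had no read in any library. In the other lists described below, Slc1a4, which fell, and Lamtor4 and Got1, which did not pass the test, held it as well. So a match in the window was present in genes that fell and in genes that did not pass the test, Slc7a11 among the latter. Sequence outside the windows was not searched, and Slc7a5 had no window, so genes without a match here may hold one elsewhere.

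Among other amino acid transporters, 5 passed the test. Of 34 further plasma membrane carriers, 13 passed the filter on low counts, 1 rose and 1 fell, while 11 did not pass the test (6.35% of all tested genes were called), with a median log2 fold change of -0.08. Slc43a2, which encodes LAT4, a carrier of large neutral amino acids such as leucine that works without a heavy chain, was at 743 ± 21.6 CPM in WT against 919 ± 37.4 CPM in AEG-1 KO (SD, n = 3). It rose to 124% of WT (log2 fold change 0.31 ± 0.04 SE, adjusted p in edgeR = 0.00437), opposite in direction to Slc7a5. Slc1a4, the ASCT1 carrier of alanine, serine and cysteine and a relative of Slc1a5, fell from 4.29 ± 0.128 CPM in WT to 2.88 ± 0.129 CPM, a log2 fold change of -0.58 ± 0.10 (SE, adjusted p in edgeR = 0.0087). Of the 9 tested lysosomal and vesicular carriers (of 10, median log2 fold change 0.15), Slc36a1 and Ctns rose and Slc15a3 fell, by log2 fold changes of 0.20, 0.21 and -0.28 (adjusted p in edgeR = 0.0388, 0.0406 and 0.0499). Slc36a1 exports small neutral amino acids and Ctns exports cystine from lysosomes, and Slc15a3 carries histidine and small peptides. Slc36a1 and Ctns each lost the call without any of the 6 libraries in turn, and Slc15a3 without WT replicates 1 or 2 or AEG-1 KO replicates 1 or 2. The number of calls in that list was 0 or 1 in these fits.

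**Figure D3:**
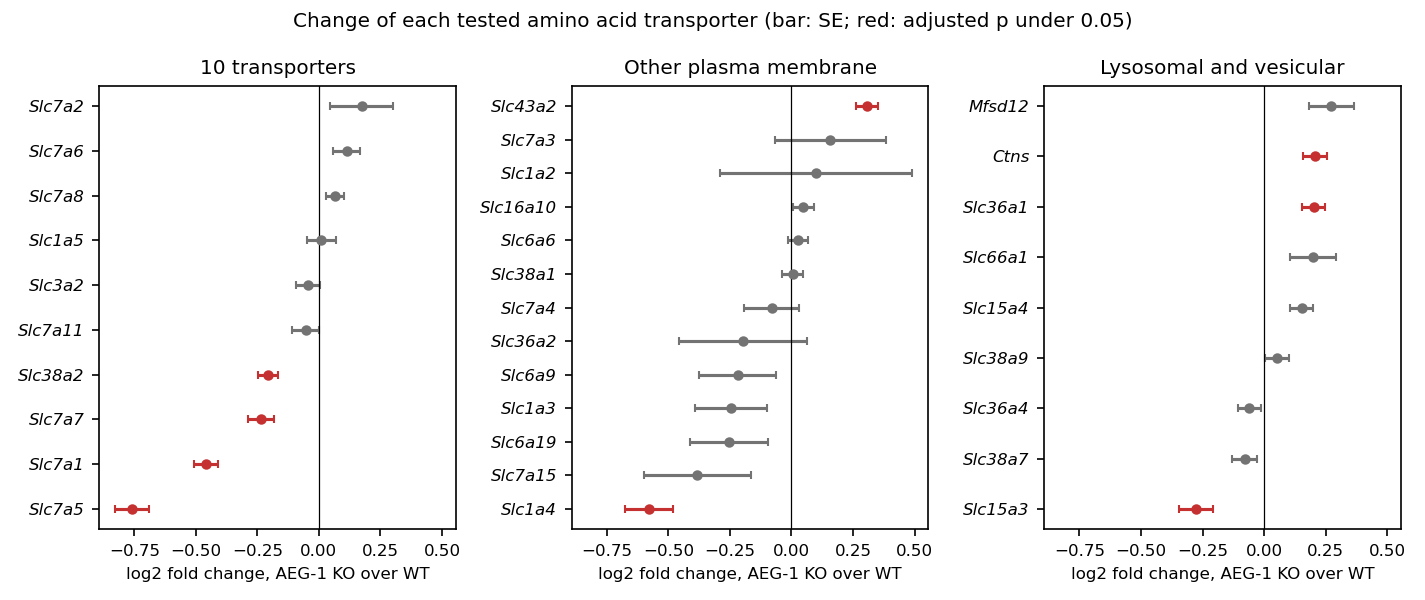
Log2 fold change of AEG-1 KO relative to WT (horizontal axis) with its SE for the 10 transporters, the 13 tested other plasma membrane carriers and the 9 tested lysosomal and vesicular carriers. Red points passed an adjusted p in edgeR of 0.05; in the left panel these are Slc7a5, Slc7a1, Slc7a7 and Slc38a2, all below 0.

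Amino acids taken up by these carriers are sensed at the lysosome by the mTORC1 kinase complex and in the cytosol by the kinase GCN2, which leads to ATF4. Of 33 genes of sensing upstream of mTORC1, 1 rose and 1 fell, while 31 did not pass the test, a share near the 6.35% called over all genes, with a median log2 fold change of 0.01. The count was 7 with the length and GC trend removed and 0 without AEG-1 KO replicate 2. Rragd, a Rag GTPase that recruits mTORC1 to the lysosome, rose from 22.2 ± 0.785 to 28.7 ± 1.39 CPM (adjusted p in edgeR = 0.00664), and Depdc5, of the GATOR1 complex that inhibits it, fell from 57.2 ± 1.17 to 50.7 ± 0.652 CPM (SD, n = 3; adjusted p in edgeR = 0.0482). Rragd lost its call without replicate 2 of AEG-1 KO and Depdc5 without any of the 6 libraries in turn. The list of the amino acid response, with ATF4 and its targets other than transporters, held 11 falls and no rise among 26 tested genes, with a median log2 fold change of -0.24. This list and its direction were known from earlier results of these data and are no independent evidence. Mthfd2 (mitochondrial folate metabolism), Asns (asparagine synthetase) and Psat1 (serine synthesis) fell to 65.9%, 66.9% and 69% of WT (adjusted p in edgeR = 0.000252, 0.000543 and 0.000899). Atf4 itself, named after its values were seen, had a mean of 280 CPM in WT against 247 CPM in AEG-1 KO (log2 fold change -0.18, adjusted p in edgeR = 0.0208); it lost its call without WT replicate 2 or AEG-1 KO replicates 1, 2 or 3. Leaving out each library in turn gave 7 to 12 calls in the list, all lower, with 7 without WT replicate 2 and without AEG-1 KO replicate 2.

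The enzymes that use the imported amino acids were counted by substrate, beside the 6.35% called over all tested genes. Of 13 tested genes of arginine use, the substrate of Slc7a1 and Slc7a2, 2 rose and 2 fell, while 9 did not pass the test, with a median log2 fold change of -0.08. Azin1, the antizyme inhibitor that favours polyamine synthesis and uptake, fell from 501 ± 18.8 to 340 ± 7.03 CPM (adjusted p in edgeR = 0.000165), and Ass1, of citrulline recycling to arginine and named after its values were seen, was the other fall (adjusted p in edgeR = 0.0252). Arg2, the mitochondrial arginase, rose from 3.21 ± 0.266 to 4.85 ± 0.0863 CPM and Gatm, of creatine synthesis, from 113 ± 5.01 to 133 ± 2.49 CPM (SD, n = 3; adjusted p in edgeR = 0.00786 and 0.0168). Gatm lost its call without WT replicates 1 or 2 or AEG-1 KO replicates 2 or 3, and Ass1 without WT replicate 2 or AEG-1 KO replicates 1, 2 or 3. The 4 calls of the list became 2 when replicate 2 of either genotype or replicate 3 of AEG-1 KO was left out.

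Of 15 tested genes of cystine reduction and glutathione, downstream of Slc7a11, edgeR called 0, at a median log2 fold change of 0.03. An unadjusted p in edgeR under 0.05 was found for 5, and the share of all tested genes under it was not counted. The count called ranged from 0 to 3 over the 15 alternatives. DESeq2 called 0 and limma-voom 1. The smallest p was that of Srxn1, an enzyme that repairs oxidized peroxiredoxins, at 351 ± 3.17 CPM in WT against 392 ± 13.2 CPM in AEG-1 KO (SD, n = 3; adjusted p in edgeR = 0.0501). Of 13 tested genes of glutamine and glutamate use, Glul, which makes glutamine, rose from 238 ± 12.7 to 290 ± 5.86 CPM (adjusted p in edgeR = 0.00888) and 12 did not pass the test (list median -0.04 on the log2 scale). Glul lost its call without replicate 2 of AEG-1 KO. Of 9 tested genes that break down branched-chain amino acids or tryptophan, substrates of Slc7a5, the aminotransferase gene Bcat2 fell from 88.6 ± 5.07 to 68.5 ± 4.31 CPM (SD, n = 3; adjusted p in edgeR = 0.00821) and 8 did not pass the test (list median -0.10 on the log2 scale). The lists of glutamine and branched-chain use had 1 call each, against 6.35% called over all tested genes.

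**Figure D4:**
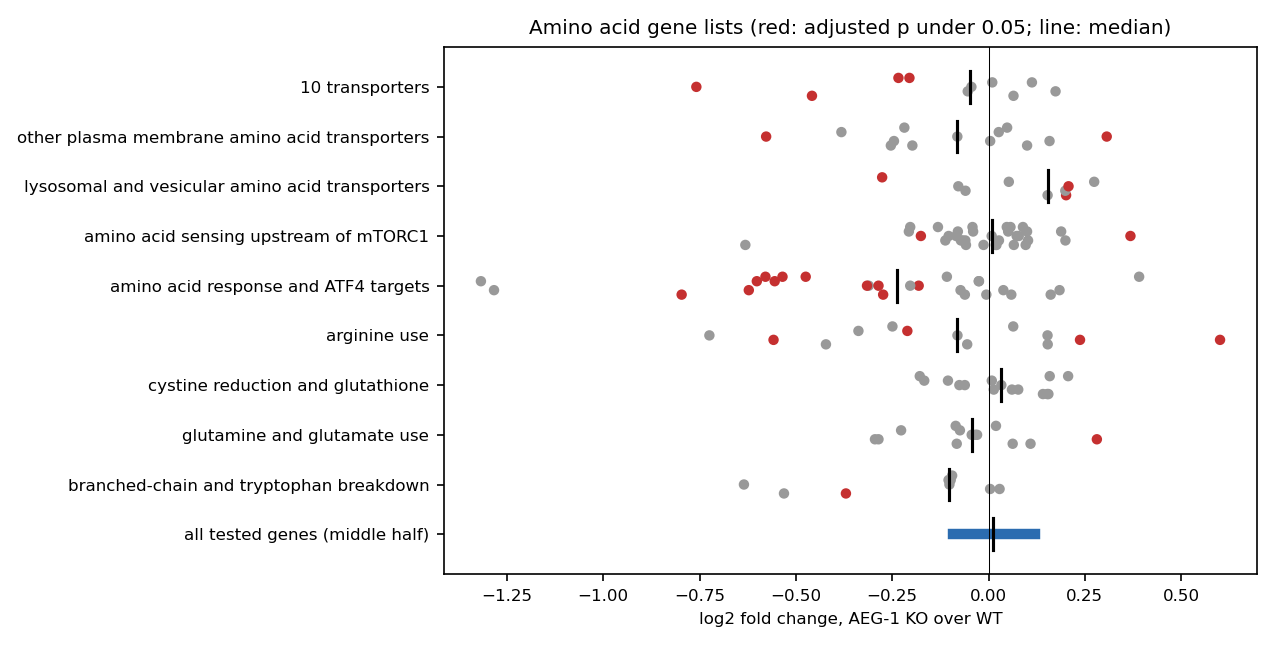
Log2 fold change of AEG-1 KO relative to WT (horizontal axis) of each tested gene in 9 lists (points, red at an adjusted p in edgeR under 0.05), with the list's median as a black line and the interquartile range of all 16115 tested genes in blue. The medians of the 10 transporters and of the ATF4 list are -0.05 and -0.24, against 0.01 over all tested genes.

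For Slc7a5, the called transporter with the smallest p, the 5 genes most alike over the 6 libraries were Mid1, Trap1, Gpr18, Spib and Ttc21a, with Pearson's r of log2 CPM of 0.998, 0.997, 0.997, 0.996 and 0.995. All 5 lay lower in AEG-1 KO, and Trap1, with -0.14 as its log2 fold change, did not pass the test (adjusted p in edgeR = 0.0728). These were taken from 13290 genes at a mean of at least 1 CPM, of which 235 had an r above 0.95. The 6 points fall into 2 genotypes and share libraries and depth, so that r describes the shared difference between genotypes as much as any likeness within them.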

How the data were processed

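The deposited table holds raw gene counts for 46983 Ensembl genes in 6 libraries. The submitters' processing notes name edgeR 3.18.1, featureCounts 1.4.6-p4, Subread, cutadapt 1.9 and FastQC 0.11.2 among the authors' tools, and GRCm38 and mm10 as builds. Not given in the sources used here are the annotation release, the strand setting and how multiply matching reads were counted. Symbols, positions and lengths came from GENCODE mouse release 21, which matched 46488 IDs (495 did not). The 3 WT and 3 AEG-1 KO libraries were compared with edgeR 4.0.16 in R 4.3.3 (filterByExpr at a minimum count of 10, TMM scaling, quasi-likelihood test, Benjamini-Hochberg adjustment over all tested genes); the code was tested on simulated data. CPM are TMM-scaled, and RPKM use the union of exons. Near-identical stretches were searched with BLAST+ 2.17.0. No 2 libraries were the same library deposited again. The alternatives used DESeq2 1.42.0, limma 3.58.1 (voom), mgcv 1.9.3 (length and GC trend), other scalings and filters, a replicate block, and each library left out. Named genes are all 10 transporters, Mtdh and the 5 genes with the highest Pearson r with Slc7a5. In each list, up to 3 called genes with the smallest p are named, or the 1 with the smallest p where none was called. Beyond these, Atf4, Ass1 and Adgre1 were named after their values were seen, genes overlapping or resembling a transporter for that reason, and others for a promoter match. Transporters and lists were chosen with earlier results of these data known.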

Additional observations from a re-analysis of the deposited data

How the results depend on the processing

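Slc7a1 and Slc7a5 stayed lower and called under all 15 alternatives (log2 fold changes of -0.49 to -0.43 and -0.81 to -0.72). Slc7a7 was called under 9 and Slc38a2 under 10, and both stayed lower in all. The number of transporters called was 4 under the other scalings, filters and tools and with the length and GC trend removed, 2 with the replicate block, and 2 to 4 when each library was left out. The number of genes called, 1023, became 227 with the replicate block, 2322 with the length and GC trend removed, and 380 to 1092 when each library was left out; the causes were not tested. With the replicate block, Slc7a7 and Slc38a2 had an edgeR adjusted p of 0.199 and 0.178. Among macrophage markers, the calls with that block were 4, all higher, so Adgre1 lost its call. Slc43a2 (0.0729), Slc1a4 (0.0788), Arg2 (0.0702), Bcat2 (0.0729), Rragd (0.0856), Glul (0.0839), Gatm (0.127), Ass1 (0.194), Atf4 (0.197), Slc36a1, Ctns, Slc15a3 and Depdc5 also lost their calls under it, while Mthfd2, Asns, Psat1 and Azin1 did not. The calls with the block were 0 among the other plasma membrane carriers, the lysosomal carriers, the sensing genes and the lists of glutamine and branched-chain use, 1 in arginine use, 6 in the amino acid response (16 with the length and GC trend removed), and 2 each among neutrophil and stromal markers. Deviations from the group mean had correlations of -0.274, -0.173 and -0.251 between libraries with the same number (1, 2 and 3). Between libraries with different numbers the correlations were 0.057 to 0.194. With 3 libraries per group these deviations constrain one another, and whether the number marks any shared handling was not tested. Slc1a5 reversed to -0.004 without a filter, -0.014 with the length and GC trend removed, -0.002 without WT replicate 1 and -0.034 without AEG-1 KO replicate 2, never past the threshold, and ranged from -0.034 to 0.036 when each library was left out. Ctns and Slc36a1 also lost their calls without a filter, Slc15a3 with limma-voom, and Depdc5 without a filter and with upper-quartile scaling or library totals. Slc7a2 has the fewest reads and the widest interval of the 10.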
